A study of Mus musculus with 2 samples.

Results

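The type-2 cytokines and alarmins were followed as 7 genes of the 33696 measured: the cytokine genes Il4, Il5 and Il13, the transcription factor gene Gata3, the receptor gene Il1rl1 and the alarmin genes Il33 and Tslp. The members were taken by name and not by a rule on their values, although earlier results of these data were known. Each had 1 row in the deposited matrices. The question was which lung cells held their transcripts, and whether the level in those cells differed between the library labelled GFI1 KO and the library labelled WT. The study examined mice with a germline deletion of GFI1, a transcriptional repressor of blood cell development, on the C57BL6/J background, and WT mice. Its methods give an adult age of 5 to 8 weeks. Total live lung cells of unperturbed animals were sorted after enzymatic dissociation and measured with 10x 3′ chemistry together with 18 antibody tags. The methods state 2 samples per genotype and 1 library per label was analysed here, so a genotype effect cannot be told apart from a difference between mice or libraries, and no test was made. The intervals given are exact 95% intervals and cover counting error only.

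Type-2 immunity is organised as a relay. IL-33, which epithelial and stromal cells release on damage, and TSLP, an epithelial and stromal cytokine, are alarmins that act on innate lymphoid cells, T cells, basophils and mast cells. IL-33 is sensed through ST2, the product of Il1rl1, and GATA3 is the transcription factor required for group 2 innate lymphoid cells (ILC2) and type-2 helper T cells. These cells release IL-4, which drives B cell class switching and helper T cell differentiation, IL-5, which sustains eosinophils, and IL-13, which acts on epithelium, smooth muscle and macrophages. In the lung ILC2 are known as a resident source of IL-5 and IL-13, and basophils as a source of IL-4.

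The library labelled GFI1 KO held 116825535 gene UMIs in 10700 cells and the library labelled WT 162599284 in 19515 cells, where a UMI is 1 captured transcript molecule, and 10495 and 19342 cells passed the filters with medians of 11076 and 6217 UMIs. Levels are given as CPM, the UMIs of a gene for every 1000000 UMIs of all retained genes in the same class and library. Gfi1 RNA was not lower under the GFI1 KO label, at 340 UMIs (3.60 CPM) against 470 UMIs (3.46 CPM) under the WT label, so these RNA values do not check the labels. The monocyte-like class took 50.1% of the cells under the GFI1 KO label against 4.04% under the WT label. A total of 74 cell barcodes occurred in both libraries. Classes are named after marker genes, and a name ending in "-like" says no more than that.

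The 3 cytokine genes are neighbours on chromosome 11. The 250 bases upstream of an annotated start site of each are shown because the class with the most UMIs was not the same for all 3 genes in either library. They are RefSeq sequences of the build GRCm38.p6, while the deposited counts were made on GRCm39, whose coordinates are not used here. Each is written 5′ to 3′ in the direction of the gene. Capitals mark GATAA, 1 of the forms that GATA factors are known to bind, and AAATCA, the core letters of a GFI1 site. Both were searched on both strands, where they read TTATC and TGATTT. For Il4 the more upstream of the start sites in the table is shown.
Il4 promoter, chr11:53618666-53618915, strand -: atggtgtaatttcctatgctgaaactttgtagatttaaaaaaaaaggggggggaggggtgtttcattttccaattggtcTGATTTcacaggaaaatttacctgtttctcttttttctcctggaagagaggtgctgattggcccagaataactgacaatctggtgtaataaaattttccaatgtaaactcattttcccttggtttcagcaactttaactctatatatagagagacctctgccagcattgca
Il13 promoter, chr11:53634703-53634952, strand -: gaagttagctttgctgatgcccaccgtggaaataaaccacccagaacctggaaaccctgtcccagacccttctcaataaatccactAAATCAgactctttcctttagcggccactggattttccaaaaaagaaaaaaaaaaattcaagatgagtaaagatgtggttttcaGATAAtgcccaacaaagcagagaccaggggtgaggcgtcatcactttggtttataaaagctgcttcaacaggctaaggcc
Il5 promoter, chr11:53720544-53720793, strand +: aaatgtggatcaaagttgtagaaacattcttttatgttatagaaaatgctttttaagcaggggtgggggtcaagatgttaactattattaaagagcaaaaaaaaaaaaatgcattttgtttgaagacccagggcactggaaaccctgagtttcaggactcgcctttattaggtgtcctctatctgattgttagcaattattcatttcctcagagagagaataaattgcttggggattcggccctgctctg
The Il13 window held 1 GATAA, 80 bases before the start, and 1 AAATCA, 164 bases before it. The Il4 window held no GATAA and 1 AAATCA match on the opposite strand, 171 bases before the start, and the Il5 window held neither. Other forms such as GATAG were not searched, so a window without GATAA can still hold a GATA site. Over all 32851 windows of the same length GATAA occurred in 22.6% and AAATCA in 12.4%, so these letters are common and a match is a description only.

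Over whole libraries 2 members were at least 2-fold higher under the GFI1 KO label, Il4 and Il13, and 3 were at least 2-fold lower, Gata3, Il1rl1 and Il33, where 3.19% of all 16315 genes with at least 30 UMIs were past 2-fold higher and 25.2% past 2-fold lower. Il4 had 203 UMIs in 18 cells against 123 UMIs in 54 cells under the WT label, and Il13 had 79 UMIs in 18 cells against 54 in 17. Il5 had 35 UMIs in 2 cells against 93 in 42. The factor and receptor genes were far scarcer under the GFI1 KO label: Gata3 had 473 UMIs against 3629, 5.34-fold lower (interval 4.85 to 5.89), and Il1rl1 217 against 2123, 6.82-fold lower (5.92 to 7.87). Il33 had 83 UMIs against 728, 6.11-fold lower (4.86 to 7.76), and Tslp 98 against 193, 1.37-fold lower (1.07 to 1.77). The median of all gene ratios over whole libraries lay at -0.37 on the log2 scale, so a lower value over whole libraries was shared by most genes, and a whole-library value moves with the number of cells of a class as well as with their RNA. The members were therefore compared class by class.

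**Figure D1:**
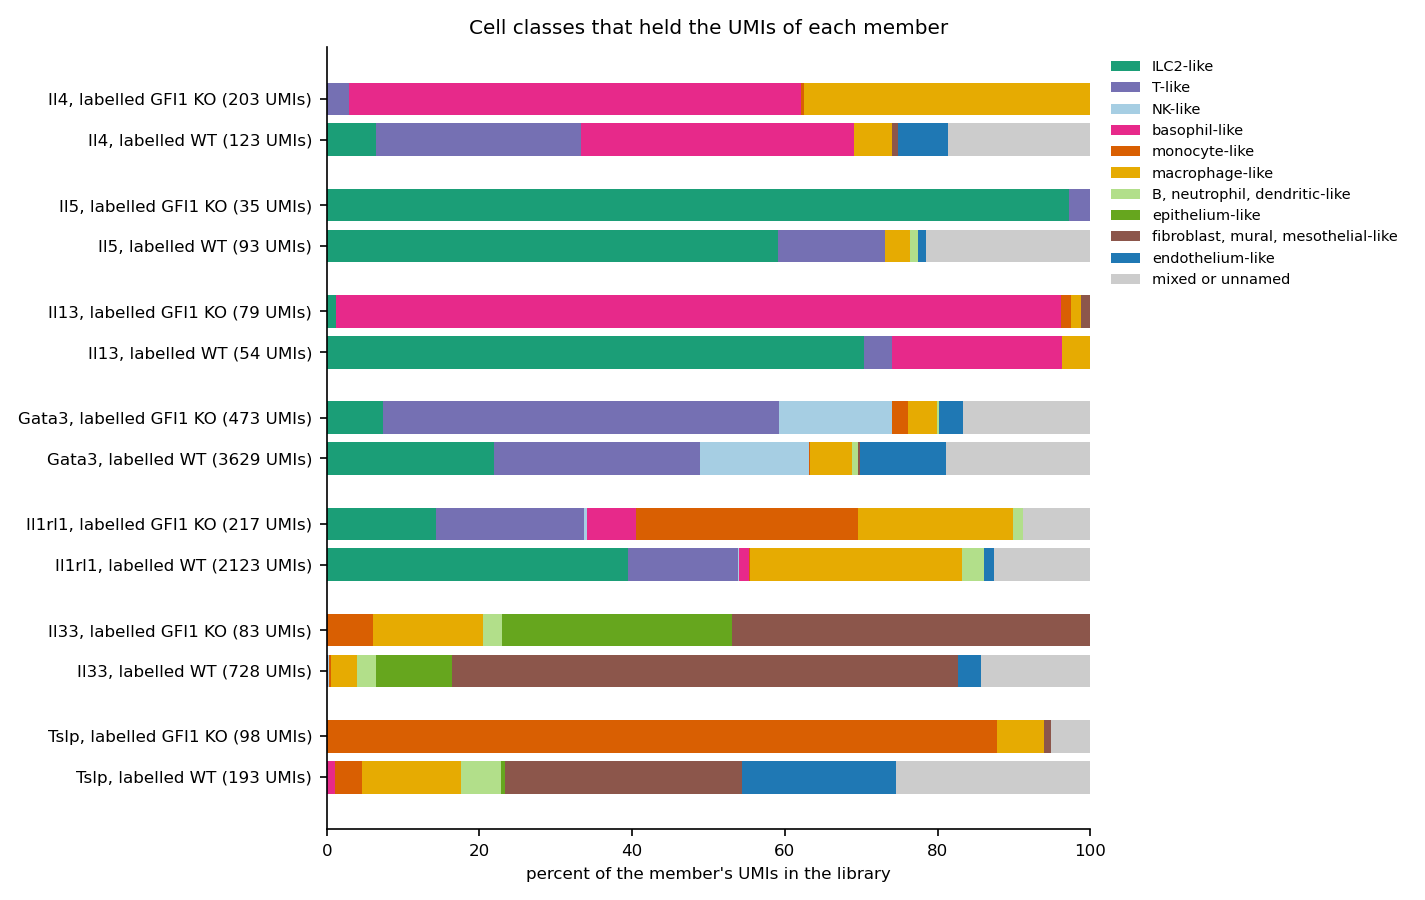
Share of each member's UMIs, in percent of its UMIs in the library, held by groups of cell classes, with 1 bar per member and library. Il13 changes from a bar mostly of ILC2-like cells under the WT label (70.4%) to a bar mostly of basophil-like cells under the GFI1 KO label (94.9%), and Tslp from stromal and endothelial cells to monocyte-like cells (87.8%). Shares also move with cell numbers: 7 ILC2-like and 5260 monocyte-like cells under the GFI1 KO label, and 130 and 781 under the WT label.

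Basophil-like cells held 59.1% of Il4 UMIs and 94.9% of Il13 UMIs under the GFI1 KO label. Under the WT label they held 35.8% of Il4, more than any other named class. The T-like classes together held 26.8% of Il4 there, and mixed or unnamed cells 18.7%. The basophil-like class held 18 cells under the GFI1 KO label against 15 under the WT label, which is 0.172% and 0.0776% of cells, with medians of 4034 and 3967 UMIs. All 8 basophil markers were raised in it. The chemokine genes Ccl3 and Ccl4, the cytokine gene Il6 and the basophil protease gene Mcpt8 led it. With the libraries clustered apart all 8 markers were raised in either one, but Mcpt8 was a leading gene only of the cells labelled GFI1 KO. The richest of those cells held 57 Mcpt8 UMIs, and the richest cell of the library labelled WT held 17. The part of this difference in the Il4 and Il13 ratios of the class was not tested. The antibody tag for FceRIa, the chain of the high-affinity IgE receptor that basophils and mast cells carry, had a median of 47.5 UMIs per cell under the GFI1 KO label against 44 under the WT label, where B-like cells had medians of 2 and 4.

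Il4 in basophil-like cells had 120 UMIs in 14 of 18 cells under the GFI1 KO label, 1596 CPM, and 44 UMIs in 10 of 15 cells under the WT label, 617 CPM. The level was 2.59-fold higher under the GFI1 KO label (1.82 to 3.74), with 27 UMIs in the richest cell against 17. Il13 had 75 UMIs in 14 cells, 997 CPM, against 12 UMIs in 7 cells, 168 CPM, which is 5.92-fold higher (3.20 to 12). After each cell was thinned to 1500 UMIs, 55.6% of cells under the GFI1 KO label against 40% under the WT label had an Il4 UMI, and 55.6% and 20% had an Il13 UMI. No B-like cell held a UMI of either gene: under the GFI1 KO label 0 of 930 cells allows a share of up to 0.323%, and under the WT label 0 of 2877 allows up to 0.104%, at median depths of 2949 and 3189 UMIs.

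**Figure D2:**
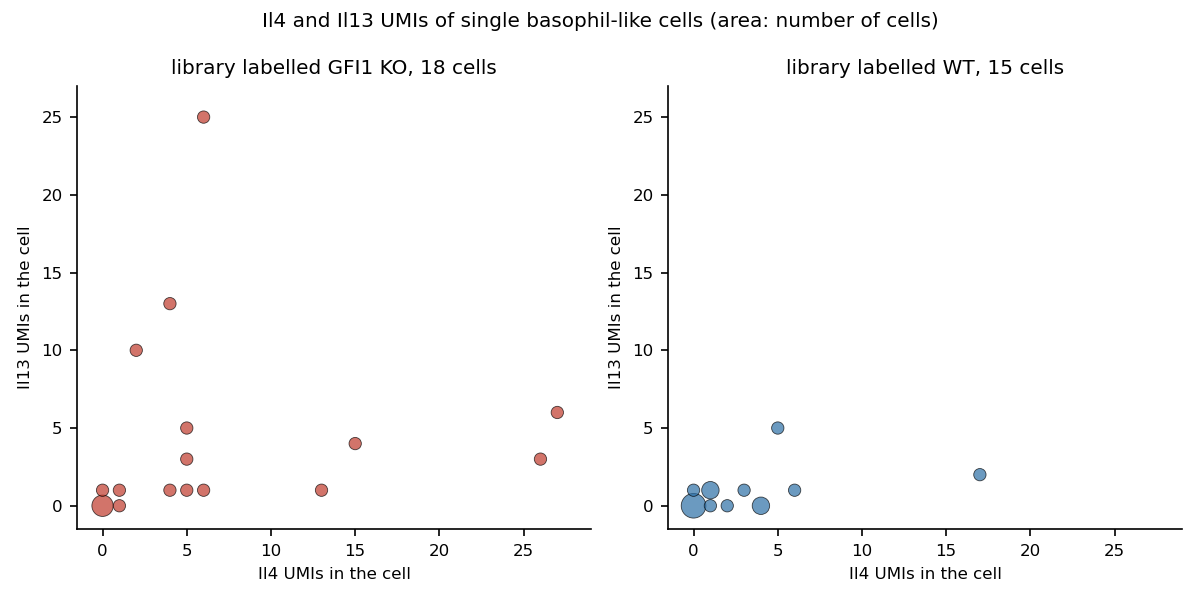
Il4 UMIs (x axis) against Il13 UMIs (y axis) of each basophil-like cell, with 1 panel per library and the area of a point showing how many cells share its position. Under the GFI1 KO label 13 of 18 cells hold both transcripts and reach 27 Il4 and 25 Il13 UMIs, and under the WT label 6 of 15 cells hold both and reach 17 and 5.

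The same basophil-like cells tended to hold both cytokines: 13 of 18 cells under the GFI1 KO label had Il4 and Il13 UMIs, 1 had only Il4, 1 only Il13 and 3 neither, against 6, 4, 1 and 4 of the 15 cells under the WT label. The cells richest in one were not those richest in the other, as the cell with 27 Il4 UMIs had 6 of Il13 and the cell with 25 Il13 UMIs had 6 of Il4. Il1rl1, the IL-33 receptor gene, went the other way, with 14 UMIs in 10 cells (186 CPM) against 27 UMIs in 11 cells (379 CPM), 2.03-fold lower under the GFI1 KO label (1.03 to 4.20). Il5 and Gata3 had 0 UMIs in this class in both libraries. All 3 members with at least 30 UMIs here were thus past 2-fold, 2 higher and 1 lower, where 7.48% of the 749 genes tested in the class were past 2-fold higher and 11.7% lower.

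No cluster of mast cells was found. In the basophil-like class 1 cell of the library labelled WT had 20 UMIs of Kit, the mast cell growth factor receptor gene, 61 of the protease gene Cpa3, 263 UMIs of the CD117 tag and 3 of the FceRIa tag. It held 9 Il1rl1, 5 Il4 and 5 Il13 UMIs, and Scrublet called it a doublet. It carried the most Il13 and Il1rl1 UMIs of any basophil-like cell under the WT label, so the WT values of these genes include it. Without Scrublet doublets the log2 ratio of Il1rl1 in this class was -0.76 in place of -1.02, which is no longer past 2-fold.

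Outside that class, a single cell held 76 of the 203 Il4 UMIs (37.4%) under the GFI1 KO label. It fell among the alveolar macrophage-like cells, had 17376 retained UMIs, 1 Il13 UMI, 10 UMIs of Mcpt8, 35 of the FceRIa tag and 11 of the alveolar macrophage gene Ear2. Its barcode was among those found in both libraries, and the cell with that barcode under the WT label had no Il4 UMI. Without cells of shared barcodes the Il4 ratio over whole libraries was 0.60 on the log2 scale in place of 1.24, and the ratio in basophil-like cells stayed at 1.37. The 76 UMIs are the whole of Il4 in the alveolar macrophage-like class under the GFI1 KO label, so no level of that class is read from them.

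ILC2-like cells were the main carriers of Il5, and under the WT label of Il13. They numbered 7 under the GFI1 KO label, 0.0667% of cells (0.0268% to 0.137%), and 130 under the WT label, 0.672% (0.562% to 0.798%). Of the 12 ILC2 markers 10 were raised in the cluster, Rora and Il2ra were among its leading genes, and the members were kept out of the genes that formed it. The tag for CD127, the IL-7 receptor chain, had medians of 26 and 25 UMIs, that for CD117 28 and 22, and that for KLRG1 16 and 32. The count under the GFI1 KO label depended on the clustering: it was 13 at a resolution of 0.5, 1 by single-cell marker gates, and 0 when each library was clustered on its own.

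Il5 in ILC2-like cells had 55 UMIs in 27 of 130 cells (20.8%, 14.2% to 28.8%) under the WT label, with at most 10 in a cell. Under the GFI1 KO label all 34 UMIs of the class lay in 1 of 7 cells, which had 10 Gata3 and 8 Il1rl1 UMIs, and the other 6 cells had none. The ratio of the class, 13.8-fold higher under the GFI1 KO label, is therefore the value of a single cell. Il13 had 38 UMIs in 7 cells under the WT label, 18 of them in the richest cell, and 1 UMI under the GFI1 KO label, and its ratio of 0.585 had an interval of 0.0144 to 3.47. Il4 had 8 UMIs in 5 cells under the WT label, where 0 of 7 cells under the GFI1 KO label allows a share of up to 42.9%. At this number of cells a difference of Il13 or Il4 was not detectable.

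Within the 130 ILC2-like cells of the library labelled WT, 25 held Il5 without Il13, 5 held Il13 without Il5 and 2 held both, while 98 held neither. All 27 cells with Il5, all 7 with Il13 and all 5 with Il4 also had Gata3 and Il1rl1 UMIs. Cells with Gata3 numbered 122 and cells with Il1rl1 123, so most cells without a cytokine UMI carried the factor and the receptor as well, and 115 cells had both.

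Gata3 and Il1rl1 levels in ILC2-like cells were close between the libraries at the main resolution of 0.8. Gata3 was at 1445 CPM (35 UMIs, 1 to 10 in each of the 7 cells) under the GFI1 KO label against 1475 CPM (795 UMIs) under the WT label, with a ratio of 0.979 (0.677 to 1.37). Il1rl1 was at 1280 CPM (31 UMIs, 2 to 8 in each cell) and 1553 CPM (837 UMIs), with a ratio of 0.824 (0.556 to 1.18). The intervals cover ratios from 0.556 to 1.37, although at a resolution of 0.5, with 13 cells in the class, the log2 ratios were -0.62 for Gata3 and -1.01 for Il1rl1. ILC2-like cells held 21.9% of all Gata3 UMIs and 39.4% of all Il1rl1 UMIs under the WT label against 7.40% and 14.3% under the GFI1 KO label. Of the 4 members with at least 30 UMIs in this class 1 was past 2-fold higher, Il5, and none lower, beside 8.73% of all 3667 genes higher and 27% lower.

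**Figure D3:**
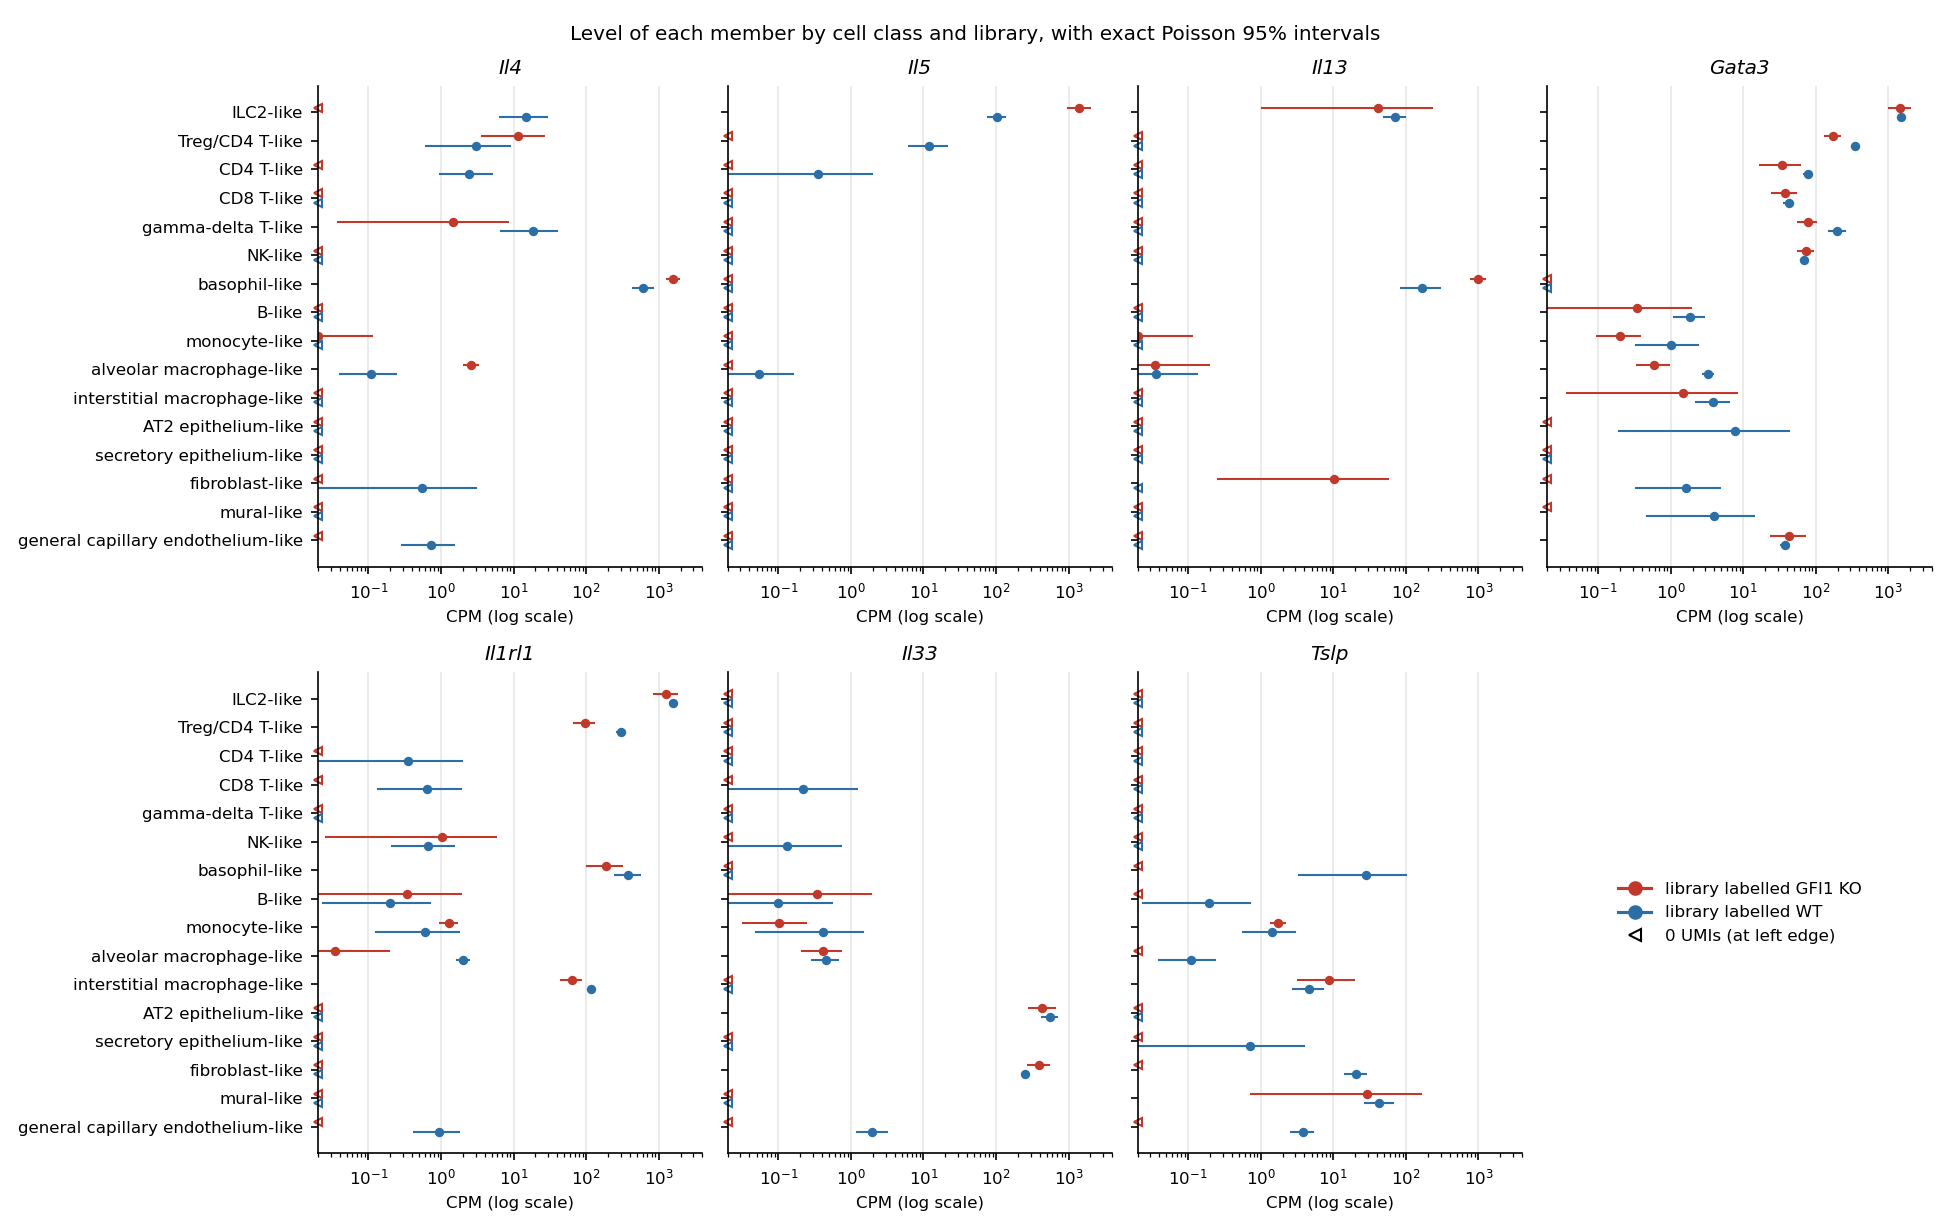
Level of each member in CPM (log axis) for 16 cell classes, with 1 panel per member, a point per library and bars for the exact Poisson 95% interval; an open triangle at the left edge marks 0 UMIs. Il4 and Il13 lie highest in basophil-like cells, Il5, Gata3 and Il1rl1 in ILC2-like cells and Il33 in AT2 epithelium-like and fibroblast-like cells.

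Gata3 was present in every lymphoid class, below its level in ILC2-like cells. Under the WT label the order was Treg/CD4 T-like cells at 351 CPM, γδ T-like cells at 196, a class that carried both CD8 and γδ markers at 103, CD4 T-like cells at 78.3, NK-like cells at 68.0 and CD8 T-like cells at 42.5, while B-like cells were at 1.86. The interval of CD4 T-like cells (68.4 to 89.2) overlapped with those of both neighbours in this order, the CD8/γδ class (86.8 to 121) and NK-like cells (62.3 to 74.2), and the other neighbours did not overlap. Under the GFI1 KO label the levels lay closer together, at 173 CPM in Treg/CD4 T-like cells and between 34.3 and 77.0 CPM in the other T and NK classes.

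NK-like and CD8 T-like cells had like Gata3 levels in the libraries, with ratios of 1.07 (0.818 to 1.37) and 0.875 (0.579 to 1.28). Past 2-fold were 3.57% of genes higher and 7.66% lower in NK-like cells, and 2.92% and 4.38% in CD8 T-like cells. The NK-like cells came mostly from 1 cluster under the GFI1 KO label, while other clusters gave most of them under the WT label. γδ T-like cells had 52 UMIs in 36 of 146 cells (77.0 CPM) under the GFI1 KO label against 64 UMIs in 28 of 66 cells under the WT label, 2.55-fold lower (1.74 to 3.75), where 6.89% of the 5688 genes tested in the class were past 2-fold lower. CD4 T-like cells had 11 UMIs in 7 of 90 cells against 225 in 146 of 746, 2.28-fold lower (1.25 to 4.63), beside 8.34% of genes lower. With single-cell marker gates in place of clusters this last ratio turned to 0.26 on the log2 scale, so the direction in CD4 T-like cells rests on how the cells were chosen. General capillary endothelium-like cells, which also carried Gata3, were at 42.6 and 37.2 CPM, a ratio of 1.15 (0.635 to 1.92).

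The Treg/CD4 T-like class, with markers of regulatory and of other CD4 T cells, held 115 cells under the GFI1 KO label against 214 under the WT label. Gata3 had 76 UMIs in 37 cells against 350 UMIs in 102 cells, 2.03-fold lower under the GFI1 KO label (1.58 to 2.64), and Il1rl1 had 42 UMIs in 11 cells against 301 in 55, 3.16-fold lower (2.29 to 4.48). Both members with at least 30 UMIs were thus past 2-fold lower and none higher, where 4.08% of the 6495 genes tested in the class were lower and 2.46% higher. The share of cells with Il1rl1 was 8.41% and 18.4% after thinning, and 0.108% of B-like cells under the GFI1 KO label against 0.0695% under the WT label had a UMI without thinning. The ratios turned when each library was clustered on its own, to 0.43 for Gata3 and 0.67 for Il1rl1 on the log2 scale, and with single-cell gates, to 0.11 and 0.13.

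Because that class is a blend, T cells with the CD4 antibody tag were split by Foxp3, the factor gene of regulatory T cells, a split chosen after the values were seen. Among cells with a Foxp3 UMI, 25 under the GFI1 KO label against 58 under the WT label, Gata3 was at 146 and 563 CPM, 3.87-fold lower (2.34 to 6.81), and Il1rl1 at 265 and 666 CPM, 2.51-fold lower (1.71 to 3.80). Gata3 was seen in 9 of the 25 cells against 34 of the 58, and Il1rl1 in 6 against 29. Among cells without a Foxp3 UMI, 175 and 898, Gata3 was at 124 and 128 CPM, a ratio of 0.975 (0.755 to 1.24). Il1rl1 was at 17.8 and 29.4 CPM there, a ratio of 0.605 (0.293 to 1.13), and was seen in 5 and 25 of these cells. Within the Treg/CD4 T-like class, cells without a Foxp3 UMI were also lower under the GFI1 KO label, with ratios of 0.688 (0.505 to 0.927) for Gata3 and 0.236 (0.114 to 0.439) for Il1rl1. For both genes the result in cells without Foxp3 thus depended on whether the tag or the cluster chose them. By either choice Il1rl1 had 11 UMIs in 5 cells under the GFI1 KO label and 103 UMIs in 25 cells under the WT label. The tag also took in CD4 T-like cells, of which 88 of 90 and 738 of 746 had it. Tagged cells without Foxp3 were thus a different mix of classes in the libraries, and the part of this in their ratios was not tested.

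**Figure D4:**
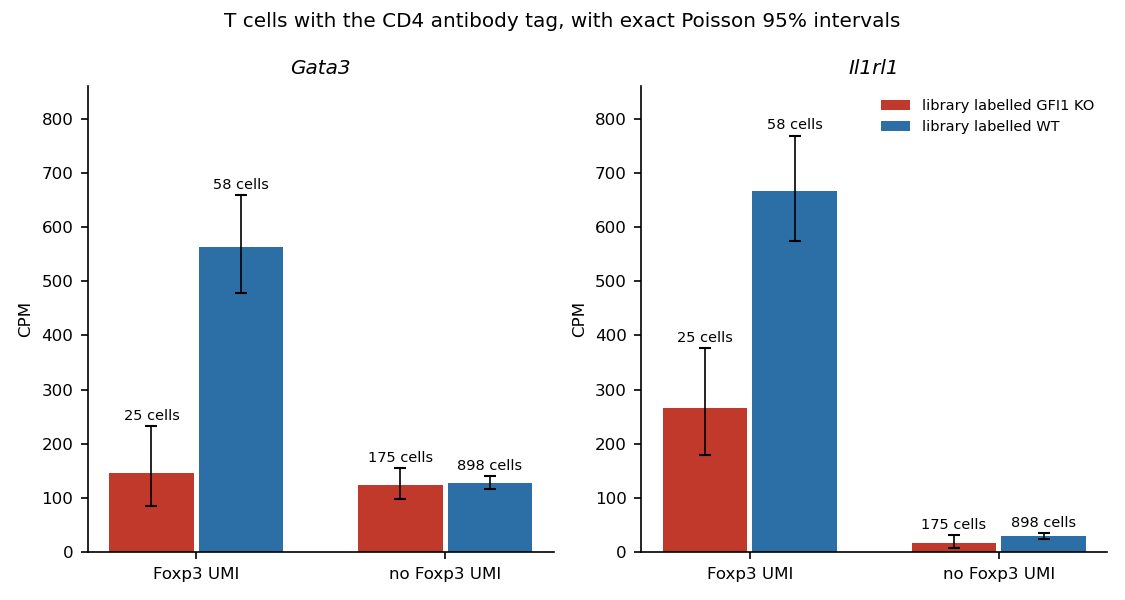
CPM of Gata3 and Il1rl1 (y axis, from 0) in T cells with the CD4 antibody tag, with or without a Foxp3 UMI; bars are the libraries, whiskers exact Poisson 95% intervals and numbers the cells. With Foxp3 the bars stand at 146 and 563 CPM for Gata3 and 265 and 666 CPM for Il1rl1. Without it the Gata3 bars are nearly level at 124 and 128 CPM, in a mix of classes that differs between the libraries.

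Cytokine transcripts were rare in T cells. Under the WT label the Treg/CD4 T-like class held 12 Il5 UMIs, 10 of them in 1 cell that also had 7 Gata3 and 4 Il1rl1 UMIs, and under the GFI1 KO label 0 of 115 cells allows a share of up to 2.61%. Under the GFI1 KO label 1 cell of this class had 5 Il4 UMIs with 18 of Gata3 and 1 of Il1rl1. The CD8/γδ T-like class had 17 Il4 UMIs in 7 of 263 cells under the WT label. Under the GFI1 KO label 0 UMIs were seen in 192 cells, and the interval of the ratio ran from 0 to 0.320. The class was made up differently in the libraries, with the CD8a tag positive in 124 of the 263 cells and 173 of the 192. Over the T classes under the WT label, Il4 had 18 UMIs in cells with the CD4 tag, 14 in cells with neither tag and 1 in cells with the CD8a tag. The part of this in the value was not tested. γδ T-like cells had 1 Il4 UMI against 6, a ratio of 0.0804 (0.00175 to 0.663). Il13 was not seen in either library in the Treg/CD4 T-like, CD4 T-like, CD8 T-like or γδ T-like classes. The CD8/γδ T-like class had 2 Il13 UMIs under the WT label, in a cell with 7 Il4 UMIs and 131 UMIs of the CD4 tag.

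Il1rl1 had a second group of carriers in the interstitial macrophage-like class, in which 4 of 8 dendritic cell markers were also raised. Whether these carriers are macrophages or dendritic cells was not tested. Interstitial macrophage-like cells had 43 UMIs in 16 of 70 cells under the GFI1 KO label (63.0 CPM) and 477 UMIs in 178 of 426 cells under the WT label (116 CPM), 1.84-fold lower (1.34 to 2.57). After thinning 7.35% and 14.7% of cells had a UMI. The log2 ratio of -0.88 was -0.18 at a resolution of 0.5 and -0.25 with the members admitted to the variable genes. This class held 22.5% of all Il1rl1 UMIs under the WT label and 19.8% under the GFI1 KO label.

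The cells of that class with Il1rl1 differed from those without it. Under the WT label Mgl2, a lectin gene of alternatively activated macrophages and dendritic cells, was seen in 95.5% of the 178 cells with Il1rl1 and 65.3% of the 248 cells without. Cd209a, a dendritic cell marker, was seen in 82.0% and 31.0%, and the complement gene C1qa in 29.8% and 62.5%. Gata3 was seen in 2.81% of the cells with Il1rl1 and the T cell gene Cd3e in 8.99%, so most of them lacked UMIs of the lymphoid genes. In the smaller library labelled GFI1 KO the same held for Cd209a, in 14 of 16 against 26 of 54 cells, and for C1qa, in 4 of 16 against 25 of 54.

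Monocyte-like cells held 63 Il1rl1 UMIs in 49 of 5260 cells under the GFI1 KO label (1.28 CPM), 29% of that library's Il1rl1, and 3 UMIs in 781 cells under the WT label (0.610 CPM), a ratio of 2.10 with an interval of 0.685 to 10.4. In this class, whose cells lay mostly in different clusters in the libraries, 7.49% of genes were past 2-fold higher and 7.36% lower. Thinned, the shares were 0.172% and 0.130%. Neutrophil-like cells had 47 UMIs in 34 of 1539 cells (9.02 CPM) under the WT label, above B-like cells at 0.195 CPM. In the alveolar macrophage-like class 112 Il1rl1 UMIs were counted in 38 cells under the WT label and 1 under the GFI1 KO label. Of these 88 UMIs lay in 17 cells of 1 dividing cluster whose cells had a median of 17559 UMIs and in which Iglc1, an immunoglobulin gene, led, and 157 of the 181 Gata3 UMIs of the class lay there too.

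**Figure D5:**
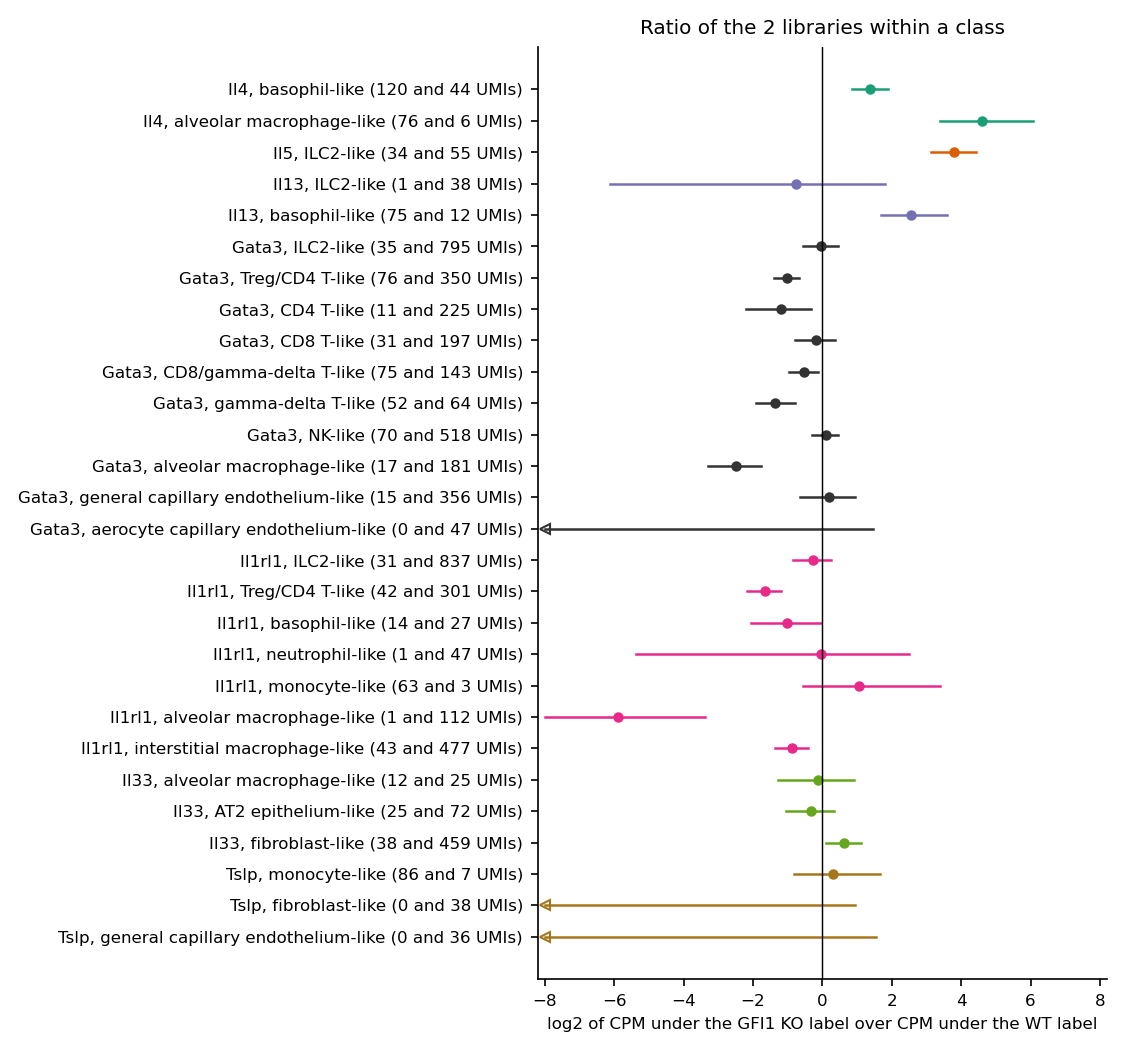
Log2 ratio of CPM under the GFI1 KO label over CPM under the WT label for the 28 pairs of a member and a named class with at least 30 UMIs, with exact conditional 95% intervals, the UMIs of the GFI1 KO and WT labels in brackets, and open triangles where the GFI1 KO label had 0 UMIs; intervals are drawn to the edge of the axis. Gata3 and Il1rl1 in ILC2-like cells lie at 0.979 and 0.824 on the linear scale, while Il4 and Il13 in basophil-like cells lie to the right of 0.

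Over the 28 pairs of a member and a named class with at least 30 UMIs, the ratio was past 2-fold lower under the GFI1 KO label in 10 and past 2-fold higher in 5. The share of all genes past 2-fold lower ran from 1.69% in B-like cells to 27% in ILC2-like cells. The share past 2-fold higher ran from 0.438% in alveolar macrophage-like cells to 8.73% in ILC2-like cells. Of the 10 lower pairs 3 had 0 UMIs under the GFI1 KO label and intervals of the ratio that reached above 1: Gata3 in aerocyte capillary endothelium-like cells (up to 2.73), and Tslp in fibroblast-like (up to 1.91) and general capillary endothelium-like cells (up to 2.94). The lower ratios of Gata3 in CD4 T-like cells and of Gata3 and Il1rl1 in Treg/CD4 T-like cells turned under other ways of choosing the cells, and that of Il1rl1 in basophil-like cells fell within 2-fold without doublets. In alveolar macrophage-like cells most Gata3 and Il1rl1 UMIs under the WT label lay in 1 dividing cluster, as given above. The cell of that class richest in Gata3 had 83 Rora and 229 KLRG1 tag UMIs, and Scrublet called it a doublet. Whether these 2 lower ratios describe macrophages was not tested. Among the higher pairs the interval of Il1rl1 in monocyte-like cells reached below 1. Without the richest cell of each library the higher pairs numbered 3, since Il5 in ILC2-like cells and Il4 in alveolar macrophage-like cells each rested on 1 cell.

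Il33 was carried by alveolar epithelium and stroma. All 6 AT2 epithelium-like cells under the GFI1 KO label, and all 10 of the library labelled WT, had Il33 UMIs, 1 to 7 and 1 to 29 in a cell, at 437 CPM and 551 CPM. The ratio was 0.794 (0.483 to 1.27). Fibroblast-like cells had 38 UMIs in 11 of 17 cells (386 CPM) and 459 UMIs in 134 of 275 cells (248 CPM), 1.55-fold higher under the GFI1 KO label (1.09 to 2.16) and so within 2-fold, where 5.31% of the 8497 genes tested in the class were past 2-fold higher and 17.4% lower. After thinning 33.3% and 21.6% of fibroblast-like cells had a UMI. Mesothelial-like cells had 24 UMIs in 7 of 12 cells under the WT label. Fibroblast-like cells held 45.8% of Il33 UMIs under the GFI1 KO label against 63.0% under the WT label.

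After thinning 1 of 6 and 5 of 10 AT2 epithelium-like cells had an Il33 UMI, 16.7% (0.421% to 64.1%) and 50% (18.7% to 81.3%). Among the fibroblast-like clusters under the WT label Il33 was spread over all 5, from 122 to 304 CPM. No UMI of Il33 was seen in mural-like or secretory epithelium-like cells, where 0 of 113 and 0 of 62 cells under the WT label allow up to 2.65% and 4.84%. B-like cells gave 0.0348% and neutrophil-like cells 0.130% of cells with an Il33 UMI under the WT label, at median depths of 3189 and 2882 UMIs, and B-like cells 0.108% under the GFI1 KO label.

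Tslp was scarce, and the classes that held most of its UMIs differed between the libraries. Under the WT label mural-like cells, which surround vessels and airways, had 22 UMIs in 21 of 113 cells (43.2 CPM), fibroblast-like cells 38 UMIs in 32 of 275 cells (20.6 CPM) and general capillary endothelium-like cells 36 UMIs in 30 of 1996 cells (3.76 CPM). Of the mural UMIs 21 lay in the cluster led by Pdzd2 and Gucy1a1. Under the GFI1 KO label 0 of 17 fibroblast-like cells and 0 of 100 general capillary endothelium-like cells had a UMI, which allows shares of up to 17.6% and 3%, so a difference from the WT label was not detectable at this number of cells. No UMI was seen in AT2 epithelium-like or ciliated epithelium-like cells, and 1 in secretory epithelium-like cells.

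Under the GFI1 KO label 86 of the 98 Tslp UMIs lay in monocyte-like cells, in 78 of 5260 cells (1.48%, 1.17% to 1.85%). The level was 1.75 CPM, and 7 UMIs in 781 cells under the WT label made 1.42 CPM, with a ratio of 1.23 (0.570 to 3.14). The monocyte-like cells lay in different clusters in the libraries: the largest cluster held 2779 cells under the GFI1 KO label and 38 of the library labelled WT, whose cells were mostly in a pair of others with 378 and 361. In the cluster with 378 cells, 2004 under the GFI1 KO label, Tslp was at 1.95 and 1.86 CPM. In the same library 0 of 930 B-like cells allows up to 0.323%, and 0 of 2515 alveolar macrophage-like cells, at a median depth of 11351 UMIs against 9191.5 in monocyte-like cells, allows up to 0.119%. At equal depth, thinned to 1500 UMIs, the share in monocyte-like cells was 0.268% (0.147% to 0.449%), where 0 of 895 B-like cells allows up to 0.335% and 0 of 2506 alveolar macrophage-like cells up to 0.120%. The share thus lay above that in alveolar macrophage-like cells and was not distinguishable from that in B-like cells. The 9 neutrophil-like cells under the GFI1 KO label were too few to serve as a background. Interstitial macrophage-like cells had 6 UMIs in 70 cells and 19 in 426 cells.

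Of the other genes of the pathway, a list of ligands, receptors, factors and target genes chosen with earlier results known, 25 had at least 30 UMIs in ILC2-like cells, of which 3 were past 2-fold higher under the GFI1 KO label and 4 lower, beside 8.73% of all genes higher and 27% lower. The median of their log2 ratios was 0.14, against -0.01 for all 3667 genes. Csf2, the gene of the growth factor GM-CSF, was 3.52-fold higher (2.65 to 4.63), with 61 UMIs in the 7 cells against 385 in the 130. Il17rb, a chain of the IL-25 receptor, was 2.13-fold higher with 7 UMIs (0.829 to 4.62) and the factor gene Tox 2.02-fold higher (1.54 to 2.62). Areg, the gene of the growth factor amphiregulin, was 2.01-fold lower (1.25 to 3.46). The remaining 3 had 0 UMIs under the GFI1 KO label: the IL-4 receptor gene Il4ra against 69, Stat5b against 61 and Chil3 against 48, each with an upper bound of the ratio above 1. In basophil-like cells 8 list genes were tested, none was past 2-fold higher and 1 was lower, Ets1, at 28 UMIs against 60, beside 7.48% and 11.7% of all genes.

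In the Treg/CD4 T-like class 28 list genes were tested, of which 1 was past 2-fold higher and 1 lower, Ramp1, with 13 UMIs against 78, beside 2.46% and 4.08% of all genes. γδ T-like cells had 27 tested, 4 higher and 3 lower, beside 8.1% of genes higher and 6.89% lower. There Areg had 515 UMIs against 6, 41.4-fold higher (18.9 to 113), Irf4 83 against 2 and Csf2 39 against 5, while Ramp3 (5.30-fold) and Il17rb (5.10-fold) were lower. The γδ T-like class held 675398 retained UMIs against 325951.

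In interstitial macrophage-like cells 12 of 38 list genes were past 2-fold lower and 1 higher, with a median log2 ratio of -0.41 against 0.00 for all genes, where 7.18% of the 9599 genes were lower and 2.58% higher. They included Retnla, an alternative activation gene, with 276 UMIs against 7811, and the chemokine genes Ccl17 with 165 against 3845, Ccl22 with 16 against 707 and Ccl24 with 23 against 522. These counts are unscaled, as the class held 682419 retained UMIs against 4122692. By CPM, Retnla was 3.83-fold lower in cells with Il1rl1 and 3.43-fold lower in cells without it, and Ccl17 3.06-fold and 3.15-fold. Under the GFI1 KO label Retnla lay in 1 cell with Il1rl1, at 120 UMIs, and 1 cell without it, at 156. In alveolar macrophage-like cells 13 of 44 were lower and 1 higher, Gfi1, beside 6.75% and 0.438% of genes, with Ccl24 at 1 UMI against 1426 and Ccl17 at 113 against 3669. The alveolar macrophage-like class held 29082922 retained UMIs against 55120353. This class was made up differently in the libraries: a cluster with Mmp12, Ccl24, Ccl17 and Arg1 among its leading genes held 268 of its cells under the WT label and 2 under the GFI1 KO label, and the part of this cluster in the values was not tested.

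In secretory epithelium-like cells, 11 under the GFI1 KO label against 62 under the WT label, 6 of 15 list genes were lower and none higher, beside 19.6% of genes lower and 1.6% higher. Retnla had 36 UMIs against 9449, Clca1, a goblet cell gene, 4 against 1757, the mucin gene Muc5ac 2 against 49 and Chil4 0 against 81. These counts are unscaled, as the class held 254759 retained UMIs against 1408307. Retnla UMIs also occurred in B-like cells, at 23.3 CPM under the WT label and 0.682 under the GFI1 KO label, cells that should lack it and in which 1.69% of genes were lower and 1.42% higher, and the part of such free RNA in the values of the other classes was not tested.

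The genes whose level most resembled each member were named over 31 points, each a named class in 1 library with at least 50 cells, by Pearson correlation of log2(CPM + 1). This is a description, since points of a library share its depth and its free RNA. Basophil-like, mesothelial-like and AT2 epithelium-like cells, with fewer than 50 cells, gave no point. Some classes gave a point under the WT label only, among them ILC2-like, fibroblast-like and mural-like cells. In the ILC2-like point Il5 was at 102 CPM and Il13 at 70.5 CPM, higher than in any other point. How far the correlations of these genes rest on this 1 point was not tested. Il5 was nearest to Ccl1 (r = 0.936), Cpa3 (0.837) and Il13 (0.837), Il13 to Lingo2 (0.908), Kcnd2 (0.903) and Cntn1 (0.893), and Il1rl1 to Ccl1 (0.789), Ttn (0.760) and Il5 (0.711). Gata3 was nearest to Aak1 (0.927), Prkcq (0.897) and Tox (0.885), genes also expressed in T cells. Il4 was nearest to Bmp7 (0.900), Ccr4 (0.793) and Eprs (0.759). Il33 followed Itgbl1 (0.945), Efhd1 (0.945) and Nalcn (0.944), and Tslp followed Rab38 (0.927), Slc10a6 (0.917) and Ptgis (0.891).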

How the data were processed

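The deposited values are UMI counts of genes and antibody tags per called cell, in 1 matrix per library, without normalization by the authors. The submitters' processing notes name Cell Ranger 9.0.1 and the build GRCm39. Removal of doublets or free RNA is not given in the sources used here. A cell was kept from 500 UMIs and 200 genes upward and up to 20% mitochondrial UMIs, which removed 205 (GFI1 KO) and 173 (WT) cells. Ribosomal, mitochondrial and Gm- genes, 18.9% and 16.4% of UMIs, were removed from all levels.

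Both libraries were clustered together with scanpy 1.11.5 (Python 3.11.15): 10000 counts per cell, log1p, 2000 variable genes chosen with R 4.3.3, 50 principal components, 15 neighbours and Leiden clustering (leidenalg 0.10.2) at resolution 0.8. Lymphoid, epithelial and stromal clusters were clustered again. The members and the pathway list were barred from the variable genes. A cluster took a name from at least 3 marker genes raised 1.5-fold and seen in 5% of its cells, and a cluster in which a class of another lineage also had at least 60% of its markers raised was called mixed. Doublets were kept; Scrublet calls were used in an alternative. Cells of clusters called mixed or unnamed took part in whole-library values only.

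UMIs were summed per class and library. Levels have exact Poisson intervals, shares Clopper-Pearson intervals and ratios exact conditional binomial intervals (scipy 1.17.1, 95%), with a floor of 3 counts for a value of 0. Ratios past 2-fold were counted for genes with at least 30 UMIs in a class over both libraries, and the scripts were tested on simulated data. A tag of at least 30 UMIs made a cell positive. With 1 library per label, no test was made and cells were not used as replicates. Il1rl1 UMIs sum its membrane and soluble forms, and genes overlapping on a strand could share counts. TMM factors came from edgeR 4.0.16.

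The text names the 7 members, genes of the pathway list with at least 30 UMIs and past 2-fold in a class, and the 3 genes most like each member. The members and lists were chosen with earlier results of these data known. The naming thresholds, the tag cut, the Foxp3 and Il1rl1 splits and 3 added alternatives were chosen after seeing the data. A gene of the list is not reported here.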

Additional observations from a re-analysis of the deposited data

Results flagged for a closer look

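The cell with the most Il4 UMIs under the GFI1 KO label was marked for a closer look because of a signal outside the gene counts: it had 35 UMIs of the FceRIa antibody tag, against a median of 1 in the alveolar macrophage-like class that held it and 47.5 in basophil-like cells of the same library. In that class 95 of 2515 cells had at least 30 UMIs of this tag. The cell also had 2039 UMIs of the CD45 tag and was not called a doublet by Scrublet. Whether it is a basophil, a macrophage or a droplet of both was not tested.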

How the results depend on the processing

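No paired analysis was possible because each label has 1 library. Of 377 log2 ratios recomputed over 32 results and 16 settings, 328 stayed within their counting interval, 43 left it and 6 changed direction. A change of direction was counted only where the interval of the main setting excluded a ratio of 1. The log2 ratios that changed direction were Gata3 in Treg/CD4 T-like cells, from -1.02 to 0.43 where the libraries were clustered apart and 0.11 with single-cell marker gates, Il1rl1 there, from -1.66 to 0.67 and 0.13, Gata3 in CD4 T-like cells, from -1.19 to 0.26 with gates, and Il5 over all cells, from -0.89 to 0.035 as a mean over cells. Gata3 in Treg/CD4 T-like cells was -1.48 without doublets and -1.41 with the members admitted to the variable genes. Il1rl1 in interstitial macrophage-like cells went from -0.88 to -7.35 where the libraries were clustered apart, -0.18 at resolution 0.5 and -0.25 with the members admitted. Clustered apart, the class of that name under the GFI1 KO label was 934 cells led by Tmem176b, Tmem176a and H2-Ab1, with 5 of 9 monocyte markers raised. The 78 cells with C1qa, Mgl2 and Cd209a among their leading genes were named plasmacytoid dendritic cell there. The value of -7.35 thus does not describe the same cells as -0.88.

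At resolution 0.5, Gata3 and Il1rl1 in ILC2-like cells were -0.62 and -1.01, ILC2-like cells under the GFI1 KO label numbered 13, and fibroblast-like cells under the WT label held 70.5% of Il33 at 223 CPM. With gates, Il4 in basophil-like cells rose to 2.39, with 2014 CPM and 83.7% of Il4 under the GFI1 KO label. The gates ask for a Mcpt8 UMI, so these values count the shared-barcode cell with 76 Il4 and 10 Mcpt8 UMIs, whose identity was not tested. They leave out the richest basophil-like cell under the WT label, with 17 Il4 and 0 Mcpt8 UMIs. The rise is therefore not read as a higher level of basophil-like cells. Gates also left 1 and 58 ILC2-like cells, 43 of the latter with Gata3 and Il1rl1, 8 basophil-like cells under the WT label, 22.6% of Il5 in ILC2-like cells and 38.3% of Il33 in fibroblast-like cells, at 219 CPM. With the libraries clustered apart no ILC2-like cell was found under the GFI1 KO label (0), ILC2-like cells under the WT label held 69.9% of Il5, and the higher pairs fell from 5 to 3, as they did without the richest cells. The Il5 share was 74.0% without doublets, and 69.9% with the members admitted or with at least 1000 genes per cell, where Il4 in basophil-like cells was at 1242 CPM. Without doublets fibroblast-like cells held 71.2% of Il33. Thinning lowered the shares of cells under the WT label to 82.5% for Il1rl1 and 80.2% for Gata3 in ILC2-like cells and 21.6% for Il33 in fibroblast-like cells.

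With at least 10 UMIs in place of 30, 7 of 31 list genes were higher in ILC2-like cells and 6 lower. Of all 6866 genes 909 were higher and 2800 lower. In Treg/CD4 T-like cells 2 of 32 were higher and 2 lower, beside 457 and 674 of 8987. In NK-like cells 4 of 33 were higher and 8 lower, beside 630 and 1259 of 11400. At 30 UMIs the NK-like counts were 3 of 28 higher and 4 lower, beside 350 and 751 of 9807. Past 1.5-fold, 5 of 25 were higher and 5 lower in ILC2-like cells, beside 680 and 1445 of 3667. In Treg/CD4 T-like cells 5 of 28 were higher and 4 lower, beside 624 and 844 of 6495. In NK-like cells 6 of 28 were higher and 6 lower, beside 1113 and 1795 of 9807. Over all cells TMM factors gave log2 ratios of 1.61 for Il4, -2.05 for Gata3, -2.40 for Il1rl1, -2.25 for Il33 and -0.09 for Tslp. Without its richest cell in each library Il4 over all cells was 0.78 and Il5 -5.82. The causes were not tested. With 7 ILC2-like and 18 basophil-like cells under the GFI1 KO label, cell number limits every ratio in these classes.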

Other observations

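Cells of mixed or unnamed clusters held a share of the members that no class describes. Under the WT label they had 86 Il33 UMIs in 10 cells, 43 Tslp UMIs in 34 cells and 19 Il5 UMIs in 7 cells of mixed clusters, 12 of the Il5 UMIs in 1 cell that Scrublet called a doublet. A mixed cluster of 29 cells under the WT label had Il1rl1 in 26 of them, at 161 CPM. Unnamed clusters held 17 Il4 UMIs under the WT label, 8 and 6 of them in cells with 75 and 322 UMIs of the CD4 tag.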
